A study of Rattus norvegicus with 2 samples.

Results

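The genes described here are the rat spliceosome and splicing factor families, chosen by name. A gene was a member where its symbol in the array's annotation began with Snrp, Sf3a, Sf3b, Srsf, Hnrnp, Prpf or Lsm and went on with a digit or letter. The rule found 72 of 14217 named genes, and 1 probe set stood for each gene, the brightest by mean log2 signal over both arrays. Of the 72, 65 reached the signal floor, a mean log2 signal of 6.48, or 89.2 units, which is the median over all probe sets other than controls. The 7 below it were Snrpn, Srsf3, Srsf7, Lsm14b, Lsmem1, Lsmem2 and Srsf7-ps4. Lsmem1 and Lsmem2, which encode membrane proteins, and Srsf7-ps4, a pseudogene, match the letters of the rule but are no splicing factors.

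The study measured rat liver RNA 24 h after partial hepatectomy (PH), an operation that takes out part of the organ and sets off regrowth of the rest. The groups are named for the fraction removed, 1/3PH and 2/3PH, and the tissue was the liver that remained. Per the series' design text, 2/3PH is followed by robust DNA synthesis and 1/3PH by little, and the comparison sought transcripts that differ between them. The 6 rats gave 2 measurements, since the RNA of the 3 rats in a group was combined before hybridisation to a single array. The sources used here do not give strain, sex or age, and neither sham operation, intact liver nor another time was analysed here. Single arrays leave no replicate check, and no test was run. "Higher" and "lower" below compare the 2/3PH array with the 1/3PH array and cover these 2 pools only.

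The spliceosome removes introns from pre-mRNA. It is built from small nuclear ribonucleoproteins (snRNPs), each an RNA (U1, U2, U4, U5 or U6) with its proteins. A ring of Sm proteins, mostly named Snrp, surrounds U1, U2, U4 and U5, and a related ring of Lsm proteins holds the end of U6. SF3a and SF3b belong to the U2 snRNP, which marks the branch site, and several Prpf proteins join U4, U6 and U5 into the tri-snRNP. SR proteins (Srsf) and heterogeneous nuclear ribonucleoproteins (Hnrnp) bind the transcript itself and influence which splice sites are used. Srsf5 was first cloned from regenerating rat liver.

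Most splicing genes were higher after 2/3PH, by amounts that were mostly under 2-fold. Of 65 members above the floor, 58 had a log2 ratio (2/3PH minus 1/3PH) above 0, or 89.2%, against 52.9% of all 9514 genes above the floor. The members' median log2 ratio was 0.50, or 1.41-fold, beside 0.03 over all those genes. The members ran from -0.54 to 1.53. A total of 26 members, or 40.0%, were at least 1.5-fold higher, against 15.8% of all genes, and none was 1.5-fold lower, against 12.0% of all genes. At the 2-fold limit, 7 members, or 10.8%, were higher against 6.12% of all genes, and none was lower against 3.68% of all genes. The shift thus appears across the bulk of the members rather than in a few large ratios. The plot of cumulative ratios shows the members' curve displaced to the right through most of its course and meeting that of all genes near its upper end.

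**Figure D1:**
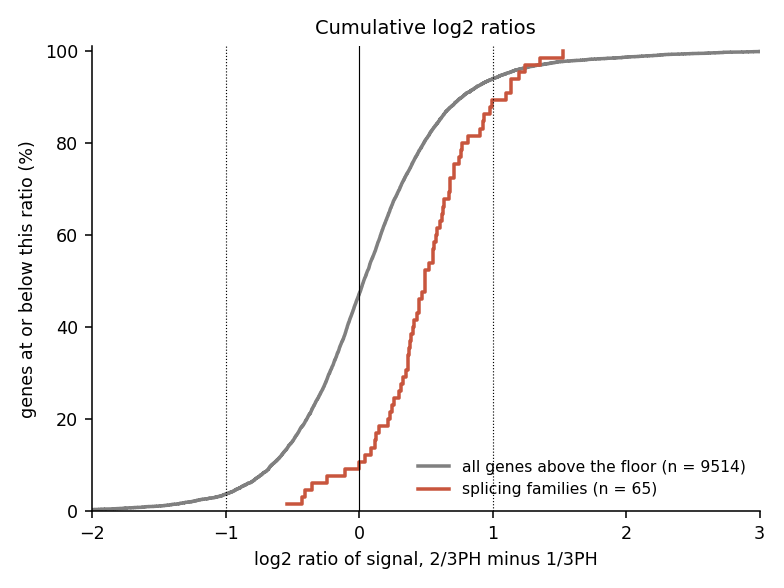
The y axis is the percentage of genes at or below each log2 ratio of signal (x axis, 2/3PH minus 1/3PH), in grey for all 9514 genes above the floor and in red for the 65 splicing family members. The members' curve lies to the right of the grey curve around its median of 0.50, no member lies below -1 (left dotted line), and 7 lie at or above 1 (right dotted line).

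The families differed in their medians. The Snrp family had the highest, 0.76 over 9 genes, followed by Lsm at 0.62 over 11, Sf3a with Sf3b at 0.53 over 9 and Hnrnp at 0.49 over 17. Srsf stood at 0.36 over 8 and Prpf at 0.22 over 11. This order is not fixed. Lsm exceeded Snrp with the 75th percentile floor (0.76 against 0.72) and with the dimmest probe set above the floor (0.90 against 0.76). It also did so, by less than the rounding, without probe sets of suffix _s_at, _x_at or _a_at. With the mean over the probe sets of a gene, Hnrnp (0.58) exceeded Sf3a with Sf3b (0.53). Without a floor, where Lsm14b, Lsmem1 and Lsmem2 also count, Lsm (0.50) fell below Sf3a with Sf3b (0.53). All 9 Snrp and all 9 Sf3a and Sf3b genes above the floor had ratios above 0, as did 16 of 17 Hnrnp, 10 of 11 Lsm, 7 of 8 Srsf and 7 of 11 Prpf genes. The ranges of all 6 families overlap, members of a family are not replicates, and the differences between families were not tested. Among the probe sets of 1 gene on these arrays, the SD of a single probe set's log2 ratio was 0.31 over 2067 genes, and 0.25 over 19 members with several. That spread covers differences between probe sets within these arrays, not variation between animals.

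**Figure D2:**
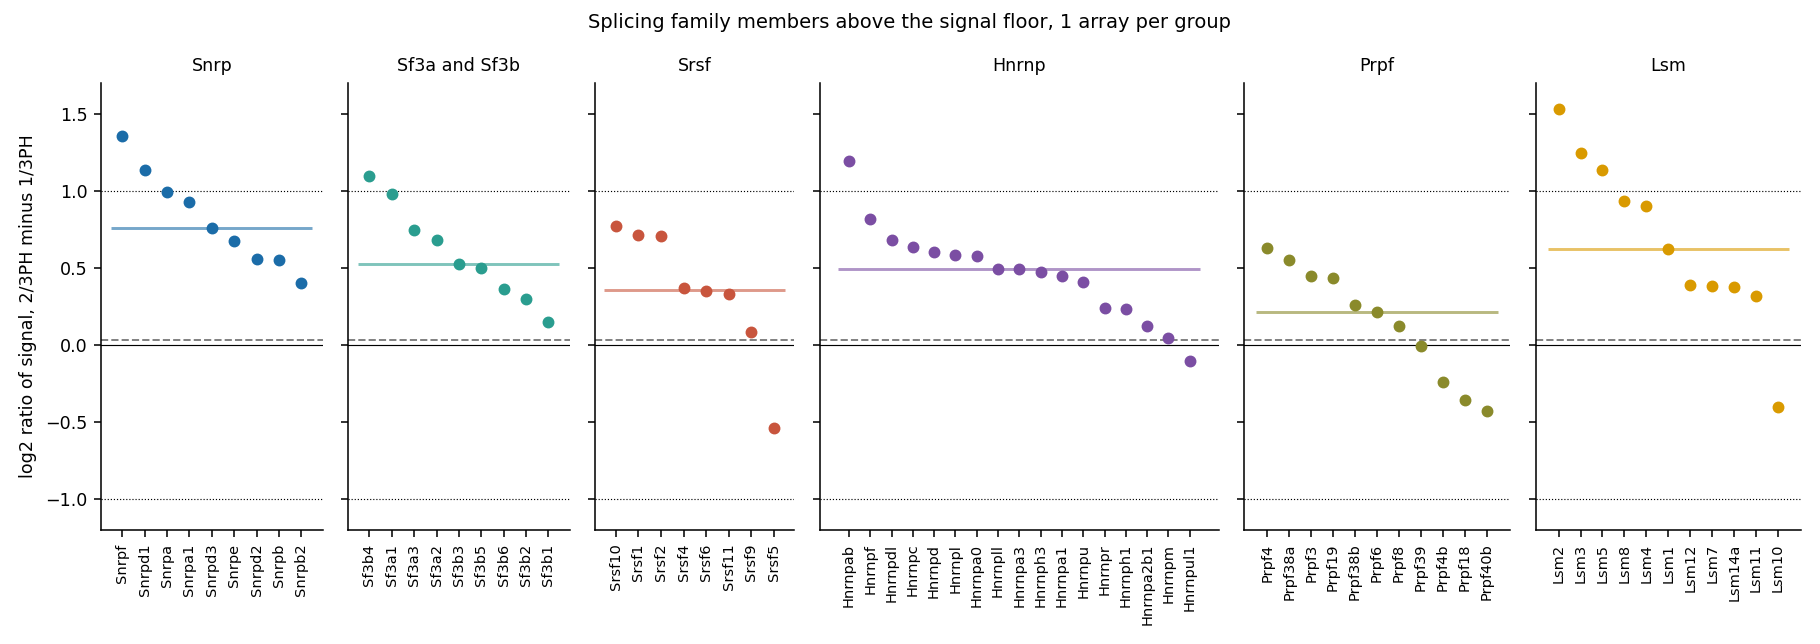
Each point is 1 of the 65 members above the floor, with its log2 ratio of signal (2/3PH minus 1/3PH) on the y axis and genes ordered within each of 6 families on the x axis. Coloured lines give the family medians, from 0.76 for Snrp to 0.22 for Prpf, the dashed grey line the median of all genes, 0.03, and dotted lines the 2-fold limits.

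The Sm ring was higher in each of its 6 members above the floor. Snrpf, which encodes Sm protein F, read 1315 in the 1/3PH pool and 3374 in the 2/3PH pool (the order used for all pairs of signals), 2.56-fold higher, the largest ratio among the Snrp genes. Snrpd1 (Sm D1) had signals of 385 and 847, 2.20-fold higher. Its second probe set had a log2 ratio of 0.94 against 1.14 for the first. Snrpd3 (Sm D3) had signals of 1885 and 3192, 1.69-fold higher.

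The other ring members were under 1.6-fold. Snrpe (Sm E) had signals of 8034 and 12806, 1.59-fold higher, Snrpd2 (Sm D2) 3850 and 5675, 1.47-fold, and Snrpb (Sm B) 2397 and 3516, 1.47-fold. Proteins of this ring assemble together on the RNA, and their transcripts spanned log2 ratios of 0.55 to 1.36. Snrpn, which encodes an Sm protein resembling Snrpb and is imprinted in mammals, lay below the floor at signals of 59.4 and 105. The gene of the remaining ring protein, Snrpg, was listed only on a probe set shared with Snrpgl1 and Snrpgl2. That probe set read 2400 and 4179, a log2 ratio of 0.80 that belongs to no single gene.

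The 3 Snrp genes above the floor that encode proteins specific to U1 or U2 were also higher. Snrpa, the A protein of U1, had signals of 251 and 500, a log2 ratio of 0.996 that lies just short of 2-fold. Snrpa1, the A' protein of U2, had signals of 1062 and 2019, 1.90-fold higher. Snrpb2, which binds U2 RNA together with the Snrpa1 protein, was only 1.32-fold higher, from 701 to 927. The U1 protein gene Snrpc was listed only with a pseudogene, Snrpc-ps3, on a probe set with a log2 ratio of 0.43.

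The Lsm genes of the U6 ring had the highest median among the groups by role. All 6 above the floor were higher and 3 passed 2-fold, against 6.12% of all genes. Their median log2 ratio was 1.04, or 2.05-fold. Lsm2 had signals of 447 and 1293, 2.89-fold higher, the largest ratio of all 65 members. Lsm3 followed with 1069 and 2532, 2.37-fold higher, and Lsm5 with 1352 and 2976, 2.20-fold. These ratios exceed those of 97.6%, 96.2% and 95.4% of all genes above the floor.

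Lsm8, the subunit that distinguishes the nuclear U6 ring, had signals of 1537 and 2945, 1.92-fold higher. Lsm4 had signals of 1059 and 1981, 1.87-fold higher. Lsm7 was the lowest of the ring, at 746 and 972, 1.30-fold. Lsm6 was listed only together with Lsm6l1, on 2 probe sets with log2 ratios of 0.66 and, below the floor, 0.44.

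Lsm proteins outside the U6 ring had smaller ratios, with a median of 0.37 over 5 genes and 4 above 0. Lsm1, which takes the place of Lsm8 in the cytoplasmic ring that promotes mRNA decapping, had signals of 973 and 1497, 1.54-fold higher. Lsm14a, a protein of cytoplasmic P-bodies, had signals of 3196 and 4142, 1.30-fold higher, and Lsm12 was 1.31-fold higher. Lsm10 and Lsm11 encode proteins of the U7 snRNP, which processes the ends of replication-dependent histone transcripts. Lsm10 had signals of 611 and 462, 1.32-fold lower, the only Lsm gene above the floor with a ratio below 0. That ratio of -0.40 became 0.04 with scaling to the poly-A controls. Lsm11 was dim, at 104 and 129, and its probe sets had ratios of 0.32 and 0.96.

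**Figure D3:**
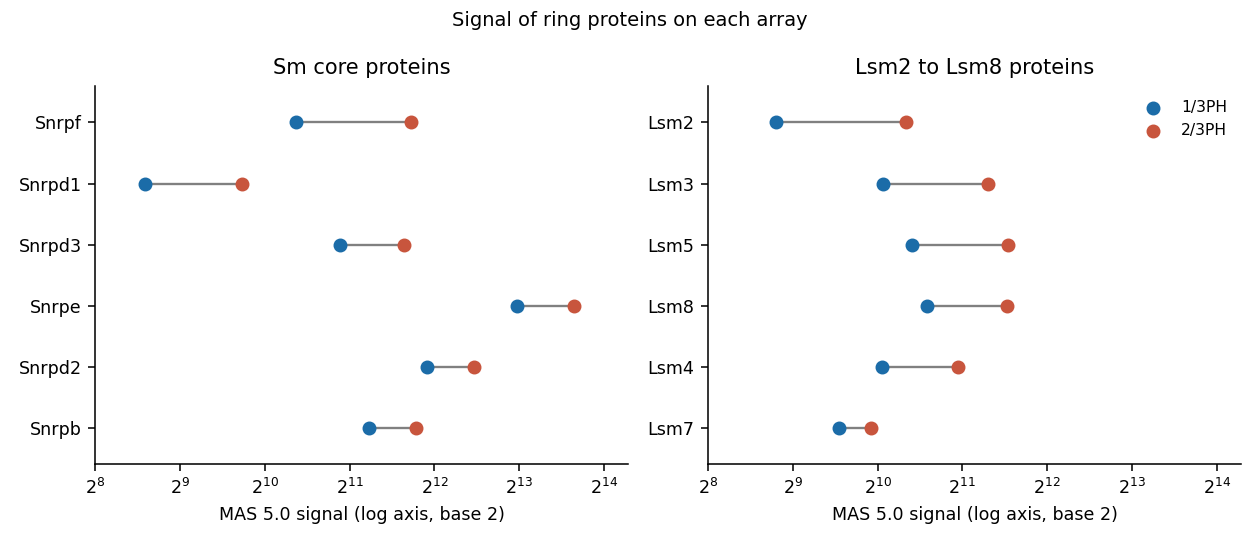
The x axis is the MAS 5.0 signal on a log axis, blue for the 1/3PH array and red for the 2/3PH array, with 1 row per gene for the Sm ring (left) and the Lsm2 to Lsm8 ring (right). In all 12 rows the red point lies to the right of the blue one, by 1.30-fold for Lsm7 up to 2.89-fold for Lsm2, and signals of different genes come from different probes and are not comparable.

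To show the promoters behind these values, the 250 bases upstream of the annotated start are printed for 4 genes picked after their values were seen: the highest Snrp and Hnrnp genes, the second Lsm gene (Lsm2 has several annotated starts) and the lowest member of all, Srsf5. The sequences are RefSeq's on build GRCr8, 5′ to 3′ on the gene's strand, with motif matches in capitals. Snrpf lies at chr7:30024163-30024412 on the minus strand, Lsm3 at chr4:125577935-125578184 on the plus strand, Hnrnpab at chr10:36363899-36364148 on the minus strand and Srsf5 at chr6:106336506-106336755 on the plus strand.
Snrpf: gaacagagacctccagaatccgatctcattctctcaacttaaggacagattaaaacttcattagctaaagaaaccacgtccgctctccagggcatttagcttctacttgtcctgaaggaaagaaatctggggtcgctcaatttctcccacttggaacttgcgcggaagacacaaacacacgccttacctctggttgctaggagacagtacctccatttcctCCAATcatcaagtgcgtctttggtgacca
Lsm3: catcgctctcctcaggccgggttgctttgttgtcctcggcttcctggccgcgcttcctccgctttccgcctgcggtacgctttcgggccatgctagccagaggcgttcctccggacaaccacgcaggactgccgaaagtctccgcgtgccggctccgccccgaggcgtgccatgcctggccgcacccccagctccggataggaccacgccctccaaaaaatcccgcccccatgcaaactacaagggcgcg
Hnrnpab: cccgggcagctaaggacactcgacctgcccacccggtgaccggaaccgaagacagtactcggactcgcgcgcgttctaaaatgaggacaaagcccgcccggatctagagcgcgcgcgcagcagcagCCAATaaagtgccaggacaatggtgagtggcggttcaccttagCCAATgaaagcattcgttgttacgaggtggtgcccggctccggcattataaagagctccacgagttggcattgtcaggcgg
Srsf5: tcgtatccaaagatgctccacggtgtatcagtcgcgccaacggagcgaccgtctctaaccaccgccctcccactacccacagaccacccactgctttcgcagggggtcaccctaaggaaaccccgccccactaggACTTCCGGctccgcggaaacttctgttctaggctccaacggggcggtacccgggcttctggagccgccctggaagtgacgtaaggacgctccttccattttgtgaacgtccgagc

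The capitals mark a CCAAT box in Snrpf, 2 CCAAT boxes in Hnrnpab and, in Srsf5, an ETS motif on the opposite strand. Lsm3 held none of the motifs searched in its printed 250 bases. Its upstream window was 66.8% G and C, against 46.8% for Snrpf, 59.2% for Hnrnpab and 61.2% for Srsf5. For the shares that follow, windows from 250 bases before to 50 after the start were searched on both strands. Each motif was searched by itself so that matches could overlap, and 61 of the 65 members had such a window. CCAAT was found in 47.5% of these members, 38.7% of genes above the floor and 37.7% of all 27457 promoters. The NRF1 motif, GCGCA and GCGC separated by any base, was found in 23.0%, 10.9% and 4.71%, and the ETS motif CCGGAAGT in 16.4%, 9.19% and 4.01%. The YY1 motif AANATGGC was found in 16.4%, 11.0% and 7.36%, and the E-box CACGTG in 11.5%, 9.82% and 6.65%. Of E2F motifs, TTTCCCGC was found in 4.92%, 2.26% and 1.03%, and TTTGGCGC in none of the members and 0.985% of genes above the floor. The 14 members with the NRF1 motif had a median log2 ratio of 0.43 and those without it 0.53. The 10 with the ETS motif had 0.64 against 0.47, and the 29 with CCAAT 0.55 against 0.43. The 7 with the E-box had 0.45 against 0.54, and the 10 with the YY1 motif 0.49 against 0.50. The 3 with TTTCCCGC had 0.56 against 0.50. These differences were not tested, and a match describes letters, not binding.

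By their brightest probe sets, the 9 genes named Sf3a or Sf3b had ratios from 0.15 to 1.10, and 8 of the 9 were higher. Sf3b1 had no settled direction. Sf3b4, an SF3b subunit that contacts the pre-mRNA near the branch site, had signals of 347 and 744, 2.14-fold higher. It fell just short of 2-fold with quantile normalization, at a log2 ratio of 0.998, and with 64 units added, at 0.97. Sf3a1 had signals of 158 and 312, 1.97-fold higher, Sf3a3 900 and 1511, 1.68-fold, and Sf3a2 646 and 1034, 1.60-fold. All 3 SF3a genes therefore lay above the median of their family. The lowest ratios were those of Sf3b1, Sf3b2 and Sf3b6.

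Sf3b6, the small subunit that touches the branch adenosine, had signals of 2945 and 3792, 1.29-fold higher. Sf3b2 had signals of 1116 and 1371, 1.23-fold higher. Sf3b1, the large scaffold of SF3b, had signals of 4112 and 4554, a log2 ratio of 0.15. Its other probe sets above the floor had ratios of 0.02 and -0.76. The second of these was near the floor, at signals of 125 and 74.0. The mean over the probe sets of Sf3b1 was -0.20. The remaining members were Sf3b3 at 1.44-fold and Sf3b5 at 1.41-fold.

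Prpf genes had the lowest median of the families, with members on both sides of 0. Prpf4, a U4/U6 protein, had signals of 643 and 994, 1.55-fold higher, the 1 member past 1.5-fold. Prpf38a, which acts when the spliceosome is activated, had signals of 756 and 1107, 1.46-fold higher. Prpf3, the partner of Prpf4, was 1.37-fold higher, from 780 to 1065. Its other probe sets were below the floor, and the mean over all of them turned negative. Prpf19, a ubiquitin ligase of the activated spliceosome, was 1.35-fold higher.

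Several core components had small ratios. Prpf8, the large U5 protein at the catalytic core, had signals of 1809 and 1972, a log2 ratio of 0.12. Prpf6 stood at 0.22 and Prpf38b at 0.26. Prpf39, which acts with U1, had signals of 1189 and 1186.

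The 3 lowest Prpf genes were lower on the deposited scale by less than 1.4-fold, and each turned positive when scaled to the poly-A controls. Prpf40b, a U1-associated protein, had signals of 277 and 206, 1.34-fold lower. Prpf18, which acts in the second step of splicing, had signals of 668 and 522, 1.28-fold lower, and a second probe set below the floor had the same ratio of -0.36. Prpf4b, a kinase, had signals of 1191 and 1008, a ratio of -0.24, but 2 of its 4 probe sets had ratios of 0.33 and 0.51. No direction can be given for Prpf4b.

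SR protein genes split into a higher set, a small set and 1 lower gene. Srsf10 had signals of 406 and 693, 1.71-fold higher, but its second probe set above the floor had a ratio of -0.11. Srsf1, which promotes splice site recognition and whose excess transforms rodent cells, had signals of 3164 and 5189, 1.64-fold higher, with a second probe set at a log2 ratio of 0.81. Srsf2, also known as SC35, had signals of 5209 and 8517, 1.64-fold higher, with a second probe set at 0.37.

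Srsf11 had signals of 3065 and 3855, 1.26-fold higher, and Srsf4 and Srsf6 lay between it and 1.29-fold. Srsf9 had signals of 840 and 892, a ratio of 0.09. Srsf5 had signals of 3801 and 2621, 1.45-fold lower, the lowest ratio of all 65 members. It had 1 probe set, of suffix _a_at, and was the only member above the floor still below 0 with scaling to the poly-A controls, at -0.09. Below the floor, Srsf7 had signals of 74.6 and 38.9 and Srsf3 of 80.1 and 95.0. A pair of brighter probe sets listed for Srsf3 together with LOC100910660 had ratios of 0.83 and 1.16, which belong to no single gene.

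All but 1 of 17 Hnrnp genes were higher, and 6 passed 1.5-fold, against 15.8% of all genes. Hnrnpab, an RNA-binding protein of the A/B group, had signals of 4930 and 11295, 2.29-fold higher, the 1 member past 2-fold. Its single probe set has the suffix _a_at, so it can detect several transcripts of the gene. Hnrnpf, which binds runs of G, had signals of 1434 and 2528, 1.76-fold higher, and Hnrnpdl 1656 and 2656, 1.60-fold.

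Hnrnpc, which binds runs of U and restrains cryptic exons, was 1.56-fold higher, and Hnrnpd, also known as AUF1, 1.52-fold. Hnrnpl, at signals of 4313 and 6478, had a log2 ratio of 0.59. Hnrnpa0, Hnrnpll, Hnrnpa3, Hnrnph3, Hnrnpa1, Hnrnpu, Hnrnpr and Hnrnph1 lay between 1.18-fold and 1.49-fold. The lowest were Hnrnpa2b1, with signals of 5370 and 5848, Hnrnpm, with 2687 and 2770, and Hnrnpul1, with 123 and 114. Hnrnpm, at a ratio of 0.04, turned negative with median centring. Hnrnpul1, at -0.11, turned positive with scaling to either kind of spiked control. Hnrnpk was listed only with Hnrnpk-ps1, on 2 probe sets with ratios of 0.15 and 0.30.

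Probe sets of the same gene mostly had the same sign. Of 19 members with several above the floor, 15 had ratios of 1 sign and 4 of both, with a median range of 0.33. The 4 were Prpf4b, Sf3b1, Srsf10 and Hnrnpa2b1. The widest range was that of Hnrnpa1, an hnRNP that antagonises SR proteins, singled out here after its values were seen. Its brightest probe set had signals of 2498 and 3411, a log2 ratio of 0.45, while the others had ratios of 1.22 and 1.49. All 3 were above 0, but the size of the difference depends on the probe set.

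**Figure D4:**
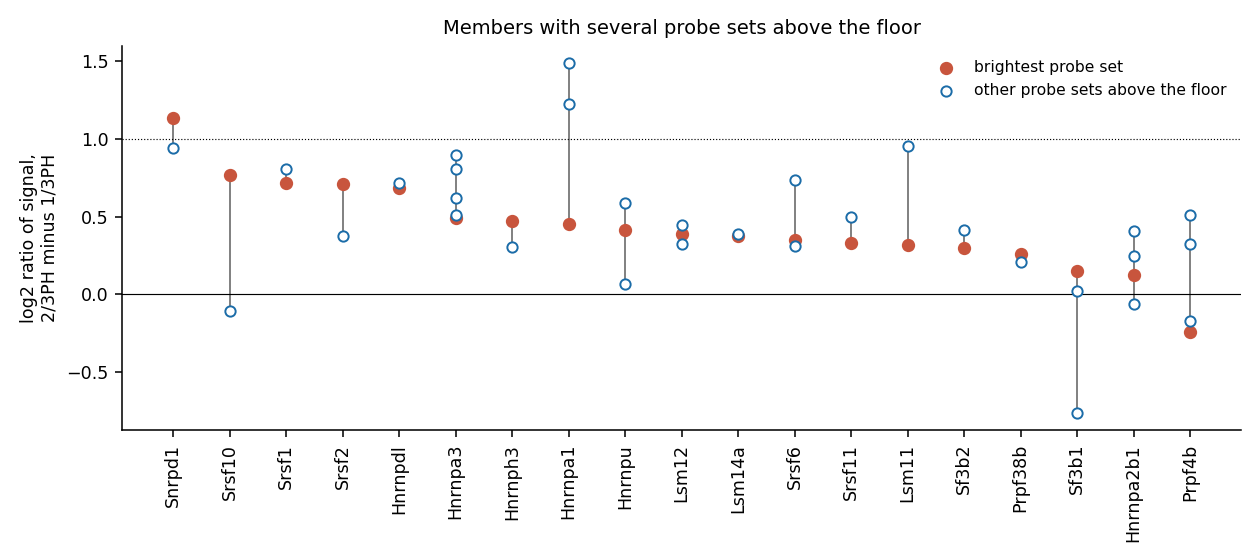
Points give the log2 ratio of signal (y axis, 2/3PH minus 1/3PH) for each probe set above the floor in the 19 members with several, filled for the brightest and open for the others. The probe sets of Hnrnpa1 span 0.45 to 1.49 and those of Sf3b1 -0.76 (near the floor) to 0.15, whereas those of Lsm14a nearly coincide.

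Other spliceosome genes, from a list not restricted to the families, had a similar pattern with fewer large ratios. Of 52 above the floor, 43 had ratios above 0, against 52.9% of all genes, and the median was 0.41. None passed 2-fold in either direction, against 6.12% of all genes higher and 3.68% lower. A total of 14 passed 1.5-fold, all higher, against 15.8% of all genes higher and 12.0% lower. U2af1, which recognises the end of the intron, had signals of 1889 and 3731, 1.97-fold higher, and U2af2, its partner, was 1.64-fold higher. Ppie, a cyclophilin of the spliceosome, was 1.94-fold and Dhx15, a helicase that releases spent spliceosomes, 1.76-fold higher. Phf5a, an SF3b subunit whose symbol the rule does not match, was 1.91-fold higher. Snrnp70 (U1-70K) and Snrnp200, the U5 helicase, had ratios of 0.05 and 0.02, both below 0 with median centring and Snrnp200 also with quantile normalization. The lowest was Ddx41, at 194 and 131, 1.49-fold lower, followed by Snrnp25, a protein of the minor spliceosome, at 1.45-fold.

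Genes that assemble and import snRNPs included 4 of 18 past 2-fold, against 6.12% of all genes, with a median of 0.45 and 16 above 0. Prmt5, the enzyme that methylates Sm proteins before assembly, had signals of 301 and 790, 2.63-fold higher. Wdr77, its partner, had signals of 749 and 1677, 2.24-fold higher. The export receptor Xpo1 was 2.12-fold and the import receptor Kpnb1 2.01-fold higher, and both also carry other cargo. Kpnb1 fell short of 2-fold with median centring, at a log2 ratio of 0.96. Smn1, the centre of the assembly complex, was 1.72-fold higher, and Snupn, which brings snRNPs back to the nucleus, was the lowest at a ratio of -0.26, positive with poly-A scaling.

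Splicing regulators outside the families were more divided. Of 36 above the floor, 27 had ratios above 0 and 9 below, with a median of 0.28, while 52.9% of all genes were above 0. A total of 3 passed 2-fold, all higher, or 2 with median centring, quantile normalization or loess. Of all genes, 6.12% were at least 2-fold higher on the deposited scale, a share near that of this list. Sfpq had signals of 729 and 1875, 2.57-fold higher, and Pspc1 574 and 1292, 2.25-fold, and both encode paraspeckle proteins. Their partner Nono was 1.57-fold higher, and Syncrip, also called hnRNP Q, 2.07-fold. Ptbp1, which silences exons in many tissues, was 1.73-fold higher. Tra2a, an SR-like protein, was 1.78-fold and Srpk1, a kinase of SR proteins, 1.65-fold higher.

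The 4 Clk genes, whose kinases phosphorylate SR proteins, all had ratios below 0 on the deposited scale. Clk4 had signals of 1703 and 1137, a log2 ratio of -0.58, the lowest of that list, and Clk1 4525 and 3260, 1.39-fold lower. Clk2 and Clk3 had ratios of -0.17 each, which turned positive with scaling to either kind of spiked control. These genes were singled out after their values were seen. The decapping partners of the cytoplasmic Lsm ring had a median of -0.11 over 7 genes, and that median turned positive with both spiked controls. On the deposited scale 3 of them were above 0, and none passed 1.5-fold, against 15.8% of all genes higher and 12.0% lower.

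**Figure D5:**
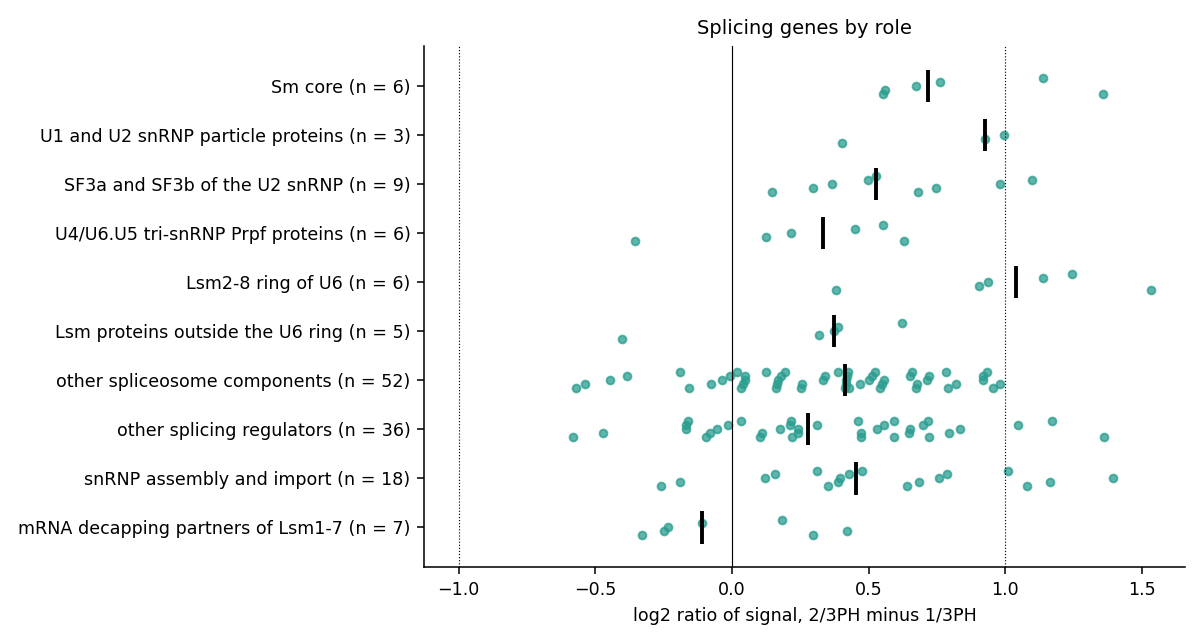
Each point is 1 gene above the floor, with its log2 ratio of signal (2/3PH minus 1/3PH) on the x axis and 10 lists by role on the y axis. Black bars mark the medians, from 1.04 for the Lsm2 to Lsm8 ring down to -0.11 for the decapping partners, and dotted lines the 2-fold limits.

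Families of other housekeeping machines had medians below the 0.50 of all splicing members together, though not below that of each family. The 46 cytosolic ribosomal protein genes above the floor had a median log2 ratio of 0.14 and the 37 proteasome subunit genes 0.25. Each group had 1 gene at least 2-fold higher, against 6.12% of all genes. The 48 translation initiation factor genes also had 1 at least 2-fold higher. A total of 14 of them were at least 1.5-fold higher, against 15.8% of all genes, and 1 was 1.5-fold lower, against 12.0%. Their median was 0.41, with 10 of the 48 below 0. The initiation factors thus lay above Srsf and Prpf, and the proteasome subunits above Prpf. With 1 array per group these medians were not tested against that of the splicing families. The ribosomal protein genes were also brighter, with a median mean log2 signal of 14.1 against 10.7 for the members. These medians are given on the deposited scale only, and the part of signal level in them was not tested.

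The scaling of the arrays bears on all these sizes. MAS 5.0 gives both arrays the same mean, so a change in RNA per cell cannot be read from them. The hybridisation controls were lower on the 2/3PH array, with a median log2 ratio of -0.24, and the poly-A controls with -0.44. Scaling to them raises each ratio by the size of these medians. The median of all genes rises by the same amounts, to 0.27 and 0.48. The members past 2-fold then number 14 and 28, against 10.2% and 16.8% of all genes. Of all calls, the share that was higher moved from 62.4% on the deposited scale to 82.2% and 92.9%. Differences between families do not depend on such a factor.

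Liver markers were present, with hepatocyte signals from 16069 for Apoa2 to 48502 for Fgb, and the 6 proliferation markers were 2.71-fold to 11.7-fold higher. The summed signal of 7 hepatocyte markers was 248329 and 211594, of 7 macrophage markers 19920 and 13607, of 6 endothelial markers 11477 and 7326, and of 7 stellate cell markers 12252 and 7452. Of the stellate markers 5 were lower, Col3a1 from 7022 to 4026 with most of the summed difference, while Des and Pdgfrb had ratios of 0.20 and 0.43. All 7 hepatocyte markers were lower on the deposited scale, but their median of -0.22 became 0.00 with quantile normalization or loess and 0.02 and 0.22 with hybridisation and poly-A control scaling. All macrophage and endothelial markers were lower too on that scale, with medians that stayed below 0 under both. The 5 neutrophil and erythroid markers summed to 30146 and 14647, all 5 lower under every scaling. The 4 cholangiocyte markers summed to 951 and 1110 with 2 above the floor, and 5 lymphocyte markers to 191 and 244 with only Zap70 above it. No marker was listed at 0. In whole tissue, fewer cells of a type and less RNA per cell cannot be told apart, and the part of cell make-up in the splicing ratios was not tested.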

How the data were processed

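Each of 2 Affymetrix arrays has 31099 probe sets with log2 signals as deposited, made with MAS 5.0 in GeneSpring 11.0 after scanning with Command Console 3.1, per the labels' protocols. Taking the log base as 2 gives both arrays a trimmed mean of 499.98 (2% trimmed at each end), which bears on that base. The sources used here give no scaling target and no detection calls. Probe sets were named from the platform annotation where it gives 1 symbol (20826 probe sets), and 57 controls were left out.

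The log2 ratio was computed without further normalization for 14217 genes. At least 2-fold counted as called. No test was possible with 1 array per group, and the number of arrays limits the precision. The members and lists were chosen with earlier results of these data known. Named genes were all members past 2-fold, the 3 highest and 3 lowest of each family, the Sm and Lsm2 to Lsm8 rings, and members whose probe sets had both signs with 1 of them at 0.3 or more. Calculations used Python 3.11.15, numpy 2.4.6, pandas 2.3.3 and statsmodels 0.14.6, and were checked on simulated data. Alternatives changed the array scaling, the floor, the added units, the probe set per gene, the symbols and the fold limit. Probe sets listing several symbols were left out of the members. Genes were matched to RefSeq promoters on GRCr8 by symbol, using the first window listed.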

Additional observations from a re-analysis of the deposited data

How the results depend on the processing

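No paired analysis was possible because each group has 1 array. The members' median stayed between 0.44 and 0.73 under all alternatives but scaling to the poly-A controls, where it was 0.94. Scaling to spiked controls shifts every gene alike. It took the median of all genes from 0.03 to 0.27 with the hybridisation controls and to 0.48 with the poly-A ones. Family medians with the poly-A ones were 1.202 for Snrp, 0.97 for Sf3a with Sf3b and 0.80 for Srsf. They were 0.93 for Hnrnp, 0.66 for Prpf and 1.06 for Lsm. The count of members at least 2-fold higher was 14 with hybridisation control scaling, 28 with poly-A scaling, 26 at a limit of 1.5-fold and 0 at a limit of 3-fold, against 2.24% of all genes at that last limit. Under the other alternatives it lay between 6 and 8. Without a floor it was 8 of 72, with Lsmem1 among them, against 11.7% of all genes. No member was called lower under any alternative. Members above 0 numbered 62 of 72 without a floor, 57 of 65 with median centring or the dimmest probe set, 55 of 60 with the 75th percentile floor and 64 of 65 with poly-A scaling. On the deposited scale 52.9% of all genes were above 0. That share is not given here for the alternatives, and scaling to either kind of spiked control raises it. Without a floor, 1662 and 1213 of all 14217 genes passed 2-fold higher and lower, or 11.7% and 8.53%. Above the main floor those counts were 582 and 350 of 9514, or 6.12% and 3.68%. At 1.5-fold those counts were 1504 and 1145, at 3-fold 213 and 95. They were 973 and 210 with hybridisation control scaling and 1599 and 123 with poly-A scaling. Median centring, quantile normalization, loess, 64 added units, the mean over probe sets and updated symbols changed no family median by more than the probe set SD of 0.31. Using the dimmest probe set above the floor, and leaving out Lsmem1, Lsmem2 and Srsf7-ps4, were added after the data were seen. Each gave 7 members past 2-fold, but with the dimmest probe set Snrpd1 (0.94) left that set and Hnrnpa1 (1.49) entered it. Of 42 named genes, 9 had the other sign under at least 1 alternative, and none of these was past 2-fold. Signal near the floor limits Lsm11, Hnrnpul1, Snrpn and the dimmest probe set of Sf3b1.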

Other observations

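Of 10 probe sets whose annotation joins a family symbol with other symbols, 7 reached the floor, and all 7 had log2 ratios above 0, from 0.15 to 1.16. They entered no count of members. The 3 below the floor include 2 listed for Snurf and Snrpn, with signals of 34.03 and 122 on the first and 55.2 and 107 on the second, beside 59.4 and 105 for the probe set listed for Snrpn alone.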
